A study of Homo sapiens with 6 samples.

Results

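Cytosolic ribosomal protein genes were followed in VCaP cells, an established human prostate cancer line, after depletion of PRMT5, the main enzyme that places symmetric dimethylation on arginines. The members were all genes whose single symbol in the platform annotation has the form of a large subunit (RPL) or small subunit (RPS) ribosomal protein, the P stalk proteins included. The rule found 59 genes of the 19775 with a single symbol on the array, 38 of them RPL and 21 RPS, with 120 probe sets. A probe set is the group of short probes that reports 1 transcript region. Of the 59 genes, 56 passed the filter on dim probe sets, which asked for a signal at or above the array's median in at least 2 of the 6 arrays, and were tested among 12413 genes. RPL36A, RPL39L and RPL3L did not pass it. RefSeq holds 84 genes of this symbol form, and the other 25 had no probe set with a single symbol here.

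The cells expressed a short hairpin RNA (shRNA) under doxycycline control. Each of 3 groups had 2 arrays: PRMT5 shRNA 1, PRMT5 shRNA 2 and a non-targeting hairpin (NTC shRNA). Every group, NTC included, received 100 ng/ml doxycycline over 3 days, so uninduced cells were not part of any comparison. Whether the replicates came from separate cultures is not in the labels. The spread behind each p-value is that between these arrays and may be technical.

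Ribosomal proteins join the ribosomal RNAs to form the small subunit, which decodes the mRNA, and the large subunit, which forms peptide bonds. Their mRNAs are short, abundant and long-lived, and most begin with a run of C and T, the 5′ terminal oligopyrimidine (TOP) tract, through which mTORC1 and LARP1 control their translation as a group. Free ribosomal proteins are unstable or bind other partners. RPL5 and RPL11, for example, bind MDM2, the ubiquitin ligase of p53. Several ribosomal proteins are themselves substrates of arginine methyltransferases, among them RPS10 (PRMT5), RPS2 (PRMT3) and RPS3 (PRMT1).

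The annotated start sites show that tract, and which relatives lack it. RefSeq promoters (GRCh38.p14) were found for 51 of the 59 members, with 59 annotated starts. A tract was scored where the first transcribed base was C and at least 4 bases, each C or T, followed on the transcribed strand. By that definition 35 of 59 member starts (59.3%) had a tract, against 4.07% of all 35116 starts in the table and 7.06% of 85 starts of mitochondrial ribosomal protein genes. Such a run began within 10 bases of the start at 47 member starts (79.7%). The shares were then 33.5% of all starts and 31.8% of the mitochondrial ones. The following windows hold 10 bases before and 20 bases from the start, 5′ to 3′ on the gene's strand, with the tract in capitals. RPL18 and RPS14 are shown because they were among the members called higher, RPL22L1 and RPS27L as paralogs beside their parents RPL22 and RPS27, RPS24 because its probe sets diverged, and RPL7L1 as a paralog without a tract.
RPL18 (chr19:48619159-48619188, minus strand): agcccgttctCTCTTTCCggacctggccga
RPS14 (chr5:150449720-150449749, minus strand): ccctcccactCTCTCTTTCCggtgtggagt
RPL22L1 (chr3:170870176-170870205, minus strand): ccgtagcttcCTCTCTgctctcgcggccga
RPL22 (chr1:6199576-6199605, minus strand): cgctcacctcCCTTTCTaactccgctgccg
RPS27L (chr15:63157458-63157487, minus strand): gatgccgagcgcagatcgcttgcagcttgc
RPS27 (chr1:153990752-153990781, plus strand): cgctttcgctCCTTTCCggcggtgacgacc
RPS24 (chr10:78033853-78033882, plus strand): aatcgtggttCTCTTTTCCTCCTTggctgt
RPL7L1 (chr6:42879606-42879635, plus strand): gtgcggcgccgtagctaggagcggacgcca
RPL22L1 kept a tract of 6 bases beside 7 in RPL22, while RPS27L had none beside 7 in RPS27. The hexamer CTTTCC, seen at the start of RPL18, RPS14 and RPS27, lay within 20 bases of 22% of the member starts, against 2.05% of all starts on that strand. The median log2 difference of PRMT5 shRNA 1 minus NTC was 0.14 over 34 tested members with a tract and 0.10 over 16 without one at the annotated base. Of these 16, RPL10A and RPL19, for example, have such a run a few bases from the annotated start. For PRMT5 shRNA 2 minus NTC the medians were 0.04 and 0.05 over the same genes. No test was made of these differences.

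PRMT5 itself was reduced by both hairpins. Its probe set read 136 and 134 in the PRMT5 shRNA 1 arrays and 291 and 321 in the PRMT5 shRNA 2 arrays, against 809.8 and 881 in the NTC arrays, which is 15.9% and 36.2% of the NTC mean for the 2 hairpins. Prostate luminal markers were present (8 of 8 at the array median or above), and summed signal of stromal, endothelial and immune markers stayed between 66 and 90 in all arrays, with 1 of 9 at the array median. Basal epithelial markers summed to 27.9 to 54.4, with 1 of 2 at the median. Neuroendocrine markers were all 4 at the median, and summed to 1006 to 1039.5 with PRMT5 shRNA 1, 1239 to 1257 with PRMT5 shRNA 2 and 1276 to 1282 with NTC shRNA. Their part in the results was not tested.

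The ribosomal protein genes moved little and moved together, and the size of the shift differed between arrays of the same group. Their signal lay near the top of the range, with 23 to 28 member probe sets among the 100 brightest of each array. The brightest member read 4529.6 to 5327.9, against array maxima of 5379.4 to 6011.9. Whether differences are compressed at such signals was not tested. Relative to the mean of the NTC arrays, the median over the 56 genes was 0.11 and 0.17 on the log2 scale in the PRMT5 shRNA 1 arrays. It was 0.12 and -0.03 in the PRMT5 shRNA 2 arrays, and -0.02 and 0.02 in the NTC arrays. The PRMT5 shRNA 1 arrays therefore both lay above the NTC arrays, whereas the PRMT5 shRNA 2 arrays lay on either side. Between the PRMT5 shRNA 2 replicates, 54 of 56 genes read lower in replicate 2, by a median of 0.15. For all 12413 genes the medians were -0.03, -0.04, 0.01 and 0.01 in the same 4 arrays.

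**Figure D1:**
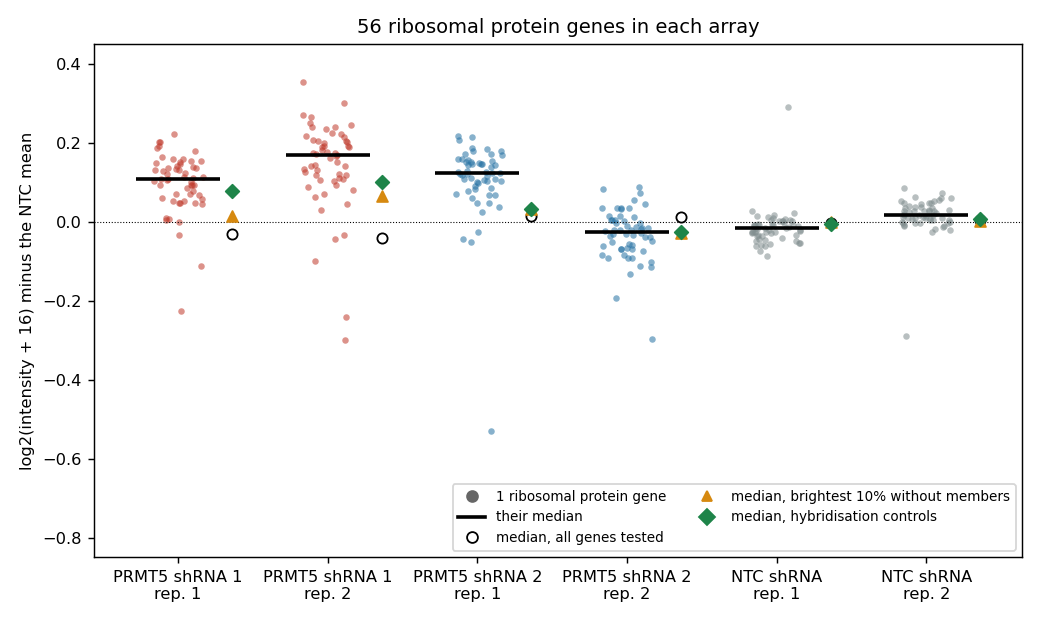
Each point is 1 of 56 ribosomal protein genes in 1 array, as log2(intensity + 16) minus its NTC mean, with bars for their median and symbols for the medians of all genes tested, of the brightest 10% of genes without the members, and of the hybridisation controls. The bars stand at 0.11, 0.17, 0.12 and -0.03 in the PRMT5 shRNA arrays, and the medians of the bright genes and of the hybridisation controls are likewise highest in PRMT5 shRNA 1 replicate 2 and lowest in PRMT5 shRNA 2 replicate 2.

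Signals that do not come from ribosomal protein genes also differed between these arrays, in part in the same order. The brightest 10% of genes, members left out, had medians of 0.01 and 0.07 with PRMT5 shRNA 1 and of 0.03 and -0.03 with PRMT5 shRNA 2. The 9 hybridisation control probe sets, for bacterial and phage targets added to the labelled sample, had medians of 0.08 and 0.10 with PRMT5 shRNA 1 and of 0.03 and -0.03 with PRMT5 shRNA 2, against -0.01 and 0.01 with NTC shRNA. The cre 3′ control, one of the brightest probe sets of the array, read 5758 and 5968 with PRMT5 shRNA 1, 5753 and 5379 with PRMT5 shRNA 2, and 5540.3 and 5584 with NTC shRNA. It was highest where the ribosomal protein genes were highest and lowest where they were lowest. The arrays between were ordered otherwise. In PRMT5 shRNA 1 replicate 1 and PRMT5 shRNA 2 replicate 1 the members stood at 0.11 and 0.12, and the hybridisation controls at 0.08 and 0.03. The 12 probe sets for polyadenylated bacterial transcripts, used as labelling controls, had medians of 1.28 and 1.28 with PRMT5 shRNA 1 and of 0.48 and 0.02 with PRMT5 shRNA 2. The ratio of the 3′ to the 5′ probe set, a measure of RNA integrity and labelling, was 1.21 to 1.23 for GAPDH in the PRMT5 shRNA arrays, against 1.26 and 1.33 in the NTC arrays. For ACTB it was 3.49 and 3.88 with PRMT5 shRNA 1 and 5.72 and 5.0 with PRMT5 shRNA 2, against 4.58 and 4.88 with NTC shRNA. The part of these differences in the shift of the ribosomal protein genes was not tested.

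With PRMT5 shRNA 1, 17 of 56 member genes rose (30.4%) and 1 fell (1.79%), where 16.2% of all genes tested rose and 23.1% fell. Among the brightest 10% of genes the shares were 19.2% and 8.45%. The median log2 difference was 0.13 over the members and -0.04 over all genes. Both PRMT5 shRNA 1 arrays lay above both NTC arrays for 46 members (82.1%), where this held for 31.1% of all genes, and both lay below for 1 member, where this held for 41.2%. The called increases were small, 0.12 to 0.29 on the log2 scale.

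The 11 large subunit genes that rose were RPL18, RPL8, RPL19, RPL29, RPL30, RPL39, RPL31, RPL10A, RPL41, RPL14 and RPL6. RPL18, a large subunit protein mutated in rare cases of Diamond-Blackfan anaemia, read 3998 and 4382 in the PRMT5 shRNA 1 arrays, against 3253 and 3605 in the NTC arrays. Its arrays did not overlap those of NTC, and the log2 difference was 0.29 ± 0.07 (SE), 1.22-fold, with an adjusted p of 0.00741 in limma. RPL8, which lies at the peptidyl transferase centre, read 2817 and 2947 in the PRMT5 shRNA 1 arrays, against 2397 and 2499 in the NTC arrays, a difference of 0.23 ± 0.07 (adjusted p = 0.0248 in limma). RPL19, which takes part in bridging the subunits, read 3205 and 3344 in the PRMT5 shRNA 1 arrays, against 2715 and 2951 in the NTC arrays, a difference of 0.21 ± 0.07 (adjusted p = 0.0321). In each of these genes the PRMT5 shRNA 1 arrays stood above both NTC arrays.

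The 6 small subunit genes that rose were RPS27L, RPS14, RPS9, RPS3, RPS15A and RPS12. RPS14, whose single-copy loss underlies the anaemia of the 5q deletion syndrome, read 3864 and 4197 in the PRMT5 shRNA 1 arrays and 3779 and 3697 in the PRMT5 shRNA 2 arrays, against 3363 and 3595 in the NTC arrays. All 4 PRMT5 shRNA arrays were above both NTC arrays, though PRMT5 shRNA 2 cleared the higher NTC array by little. The log2 difference was 0.21 ± 0.06 for PRMT5 shRNA 1 (adjusted p = 0.0123 in limma) and 0.16 ± 0.05 for both hairpins averaged (adjusted p = 0.029). With PRMT5 shRNA 2 it was 0.10 ± 0.06 and did not pass the test (adjusted p = 0.217). The PRMT5 shRNA 1 call was lost in 7 of 17 alternatives and the averaged call in 9. RPL22L1 was the 1 member that fell, and it is described with the paralogs.

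**Figure D2:**
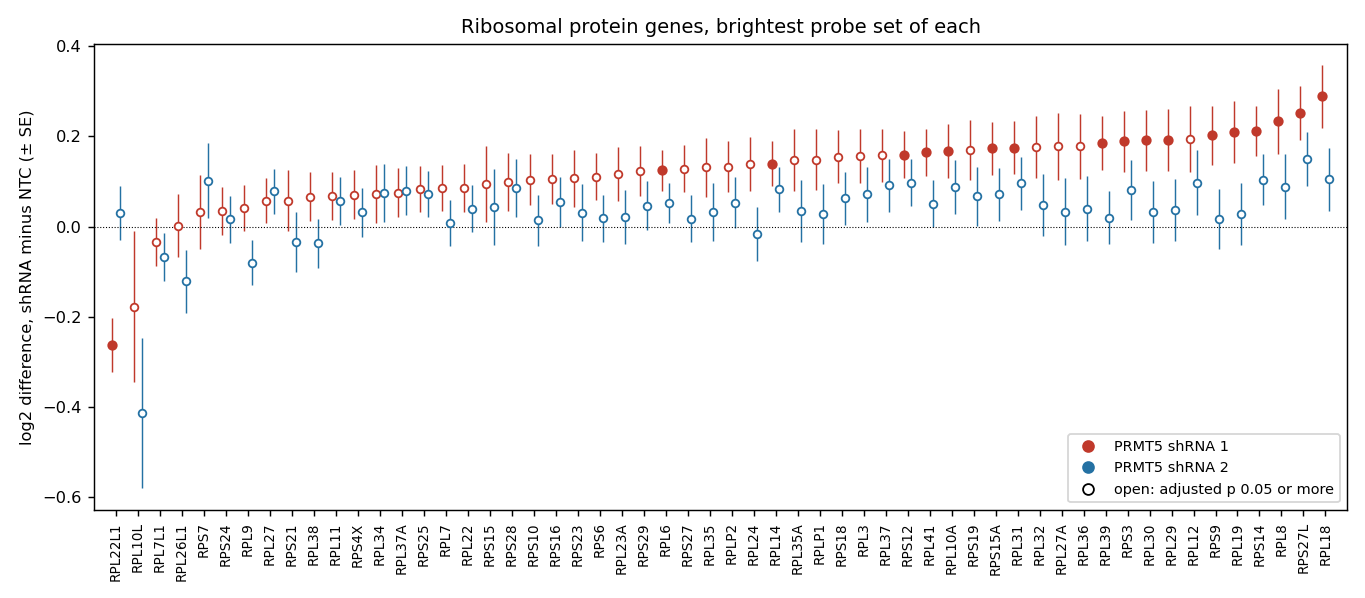
Log2 difference from NTC (± SE of limma's fit) for the 56 tested genes with PRMT5 shRNA 1 and PRMT5 shRNA 2, ordered by the difference for PRMT5 shRNA 1, with filled symbols at an adjusted p under 0.05. The PRMT5 shRNA 1 values run up to 0.29 for RPL18, nearly all above 0, and 18 symbols of that hairpin and 0 of the other are filled.

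The count of 17 rested on the scaling and on single arrays. It was 3 after quantile normalization, 9 after cyclic loess, 23 when the brightest 10% of genes were set to 1 median, and 2 when arrays were scaled to the hybridisation controls, an alternative added after the data were seen. It was 3 with no filter on dim probe sets, which tested 59 members, 7 with the replicate number as a block and 2 without the intensity trend. With the mean over a gene's probe sets it was 10. It was 6 without _x_at and _s_at probe sets, which left 30 members tested. Over all genes, 2008 were called higher as reported. Under the other settings with all 6 arrays and 12413 genes, 1328 to 2269 were. These numbers were 1784 of 19775 with no filter and 1562 of 9792 without _x_at and _s_at probe sets. Leaving out 1 array also moved the count of members. It fell when 1 NTC or PRMT5 shRNA 1 array was left out, and so did the count over all genes. Both counts rose when 1 PRMT5 shRNA 2 array was left out. The PRMT5 shRNA 2 arrays enter this contrast only through the estimate of the spread. The member median was 0.11 without NTC replicate 1 or without PRMT5 shRNA 1 replicate 2. It was 0.16 without NTC replicate 2, 0.17 without PRMT5 shRNA 1 replicate 1 and 0.13 without either PRMT5 shRNA 2 array. The median of all genes stayed between -0.04 and -0.03. RPL18 and RPS27L were the 2 genes still called higher after scaling to the hybridisation controls, under which the member median was 0.03 and that of all genes -0.12. With the mean over its probe sets RPL18 gave 0.02 and was not called. Its dim probe sets 222297_x_at and 214335_at gave -0.24 and 0.01 with PRMT5 shRNA 1.

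**Figure D3:**
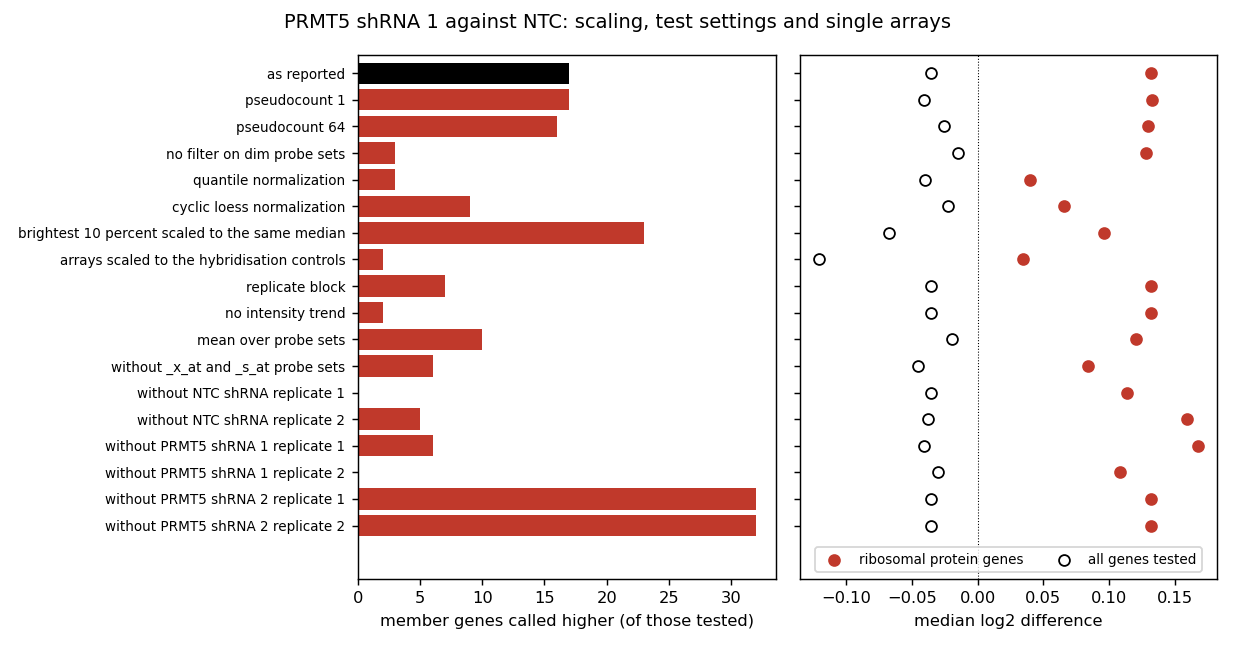
Number of member genes called higher with PRMT5 shRNA 1 against NTC (left) and median log2 difference of members and of all genes tested (right), as reported and under each alternative. The number of members tested was 59 with no filter, 30 without _x_at and _s_at probe sets and 56 otherwise. The count lies between 0 and 32, and the member median stays above 0 and above the median of all genes throughout, from 0.03 to 0.17.

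With PRMT5 shRNA 2, 0 of 56 member genes were called higher and 0 lower, where 13.1% of all genes rose and 8.39% fell, and 7.09% and 3.86% of the brightest 10% of genes did. The median log2 difference was 0.04, against 0.01 over all genes. Both PRMT5 shRNA 2 arrays lay above both NTC arrays for 9 members (16.1%) and below for 2 (3.57%), where this held for 32.2% and 27.6% of all genes. At an unadjusted p under 0.05 in limma, 1 member was higher (RPS27L) and 1 lower (RPL10L). The share of all genes at that threshold was not computed. RPS27L had the highest difference, 0.15 ± 0.06 (adjusted p = 0.102 in limma). Without PRMT5 shRNA 2 replicate 2 the member median was 0.12, and that of all genes 0.01. 

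For both hairpins averaged against NTC, 3 members rose, RPS27L, RPL18 and RPS14 (5.36%), and 0 fell, where 15.4% of all genes rose and 17% fell. Among the brightest 10% of genes, 12.2% rose and 6.44% fell. At an unadjusted p under 0.05 in limma, 14 members were higher and 1 lower. The share of all genes at that unadjusted threshold was not computed, for this contrast or for that between the hairpins. The shares of all genes given here are at adjusted p and are not its counterpart. RPL18 differed by 0.20 ± 0.06 (adjusted p = 0.0282 in limma), 1.15-fold. All 4 PRMT5 shRNA arrays lay above both NTC arrays for 7 members (12.5%), where this held for 18.7% of all genes. Without PRMT5 shRNA 2 replicate 2 the count of members called higher rose. It fell when either NTC array or PRMT5 shRNA 1 replicate 2 was left out. The count over all genes moved the same way each time. The member median was 0.13 without PRMT5 shRNA 2 replicate 2, 0.07 without NTC replicate 1 and 0.11 without NTC replicate 2. It was 0.08 without PRMT5 shRNA 1 replicate 2, against 0.09 as reported. With all 6 arrays, 1 member was called higher with no filter (1667 of 19775 genes) or with the mean over probe sets (2096 of 12413). The count was 0 without the intensity trend (1764 genes) and 11 when the brightest 10% of genes were set to 1 median (1732 genes). As reported, 1910 of 12413 genes were called higher. The hairpins were also set against each other. RPL22L1 was higher with PRMT5 shRNA 2 than with PRMT5 shRNA 1, and 0 members were lower, where 18.3% of all genes were higher and 7.38% lower, and 4.91% and 8.7% of the brightest 10% were. At an unadjusted p under 0.05 in limma, 8 members were lower. Without PRMT5 shRNA 2 replicate 1 more members were called lower, while the number over all genes changed little. The member median between the hairpins was then -0.16, against -0.09 with all arrays. The median of all genes was 0.06 in both. The contrasts with NTC share the NTC arrays, so their values are given side by side only.

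The P stalk recruits elongation factors to the large subunit. RPLP1 read 3010.2 and 3249.8 in the PRMT5 shRNA 1 arrays and 3076 and 2688 in the PRMT5 shRNA 2 arrays, against 2768 and 2873 in the NTC arrays. RPLP2 read 3889 and 3993 in the PRMT5 shRNA 1 arrays and 3909 and 3555 in the PRMT5 shRNA 2 arrays, against 3504 and 3685 in the NTC arrays. In both genes the PRMT5 shRNA 1 arrays lay above NTC and the PRMT5 shRNA 2 arrays overlapped NTC. At these probe sets neither passed the test, with differences of 0.15 and 0.13 for PRMT5 shRNA 1 and of 0.03 and 0.05 for PRMT5 shRNA 2. The RPLP2 probe set 200909_s_at, shared with the small nucleolar RNA SNORA52, rose by 0.20 ± 0.07 with PRMT5 shRNA 1 (adjusted p = 0.0427 in limma). It gave 0.06 ± 0.07 with PRMT5 shRNA 2. A dim RPLP2 probe set, 217670_at, fell with PRMT5 shRNA 2 (-0.43). RPLP0, which anchors the stalk, was not analysed here.

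RPL11, which forms the 5S ribonucleoprotein with RPL5, read 3792 and 3666 in the PRMT5 shRNA 1 arrays and 3853 and 3549 in the PRMT5 shRNA 2 arrays, against 3516 and 3597 in the NTC arrays. The PRMT5 shRNA 1 arrays lay just above NTC and the PRMT5 shRNA 2 arrays overlapped NTC, and the differences of 0.07 ± 0.05 for PRMT5 shRNA 1 and 0.06 ± 0.05 for PRMT5 shRNA 2 did not pass the test. RPL5 was measured only through probe sets that its annotation shares with small nucleolar RNAs (snoRNAs). The brightest of these read 4072 and 4329 in the PRMT5 shRNA 1 arrays and 4137 and 3847 in the PRMT5 shRNA 2 arrays, against 4069 and 3962 in the NTC arrays, and did not pass the test in either hairpin (adjusted p = 0.387 for PRMT5 shRNA 1 and 0.931 for PRMT5 shRNA 2 in limma). The dim 210034_s_at, shared by RPL5 and SNORD21, read 94.5 and 74.2 in the PRMT5 shRNA 1 arrays and 72.2 and 75.1 in the PRMT5 shRNA 2 arrays, against 101 and 102 in the NTC arrays, with all 4 PRMT5 shRNA arrays below both NTC arrays. It fell with PRMT5 shRNA 2 (-0.39 ± 0.11, adjusted p = 0.0345) and averaged (-0.31 ± 0.10, adjusted p = 0.0348).

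Of the ribosomal proteins known to carry methylated arginines, RPS3 rose with PRMT5 shRNA 1. It read 3367 and 3616 in the PRMT5 shRNA 1 arrays and 3474 and 3013 in the PRMT5 shRNA 2 arrays, against 3042 and 3075 in the NTC arrays, a difference of 0.19 ± 0.07 for PRMT5 shRNA 1 (adjusted p = 0.0444 in limma) and of 0.08 ± 0.07 for PRMT5 shRNA 2. RPS10, the PRMT5 substrate, read 3601 and 3794 in the PRMT5 shRNA 1 arrays and 3649 and 3302 in the PRMT5 shRNA 2 arrays, against 3426 and 3449.9 in the NTC arrays. Its differences of 0.10 and 0.01 did not pass the test. Of its other probe sets 1 was called, 214001_x_at, which rose by 0.16 ± 0.06 with PRMT5 shRNA 1 (adjusted p = 0.0477 in limma), a call lost in 11 of the 15 alternatives run on probe sets. RPS6, the substrate of the S6 kinases, read 4565 and 4779 in the PRMT5 shRNA 1 arrays and 4563 and 4206 in the PRMT5 shRNA 2 arrays, against 4331 and 4317 in the NTC arrays, and its differences of 0.11 for PRMT5 shRNA 1 and 0.02 for PRMT5 shRNA 2 did not pass it either. These arrays measure mRNA and say nothing of methylation or phosphorylation of the proteins.

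By signal, the 5 brightest tested genes were RPL41, RPL6, RPS6, RPL7 and RPL9. A probe set's brightness depends on its probes, so it does not rank the genes by mRNA level. RPL41, which encodes a very short protein, read 5021 and 5328 in the PRMT5 shRNA 1 arrays, against 4529.6 and 4700 in the NTC arrays (difference 0.16 ± 0.05, adjusted p = 0.0293 in limma). RPL9, a large subunit protein, read 4582 and 4512 in the PRMT5 shRNA 1 arrays and 4341 and 4028 in the PRMT5 shRNA 2 arrays, against 4501 and 4341 in the NTC arrays, with overlapping groups for PRMT5 shRNA 2 and differences of 0.04 and -0.08 that did not pass the test. The 5 dimmest were RPL10L, RPL26L1, RPL22L1, RPS28 and RPL36, of which the first 3 are paralogs. RPL36, a large subunit protein, had differences of 0.18 and 0.04 for the 2 hairpins, and neither passed the test. Of 13 tested genes mutated in Diamond-Blackfan anaemia, an inherited failure of red cell production, RPL18 and RPL31 rose with PRMT5 shRNA 1, a share close to the 16.2% of all genes, 0 fell, and the median difference was 0.12.

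RPL22L1 and RPS27L were the paralogs that passed the test. RPL22L1, a paralog of RPL22 that can take its place in the ribosome, read 771 and 732 in the PRMT5 shRNA 1 arrays and 919 and 926 in the PRMT5 shRNA 2 arrays, against 915 and 892 in the NTC arrays. Both PRMT5 shRNA 1 arrays were below every other array, and the PRMT5 shRNA 2 arrays lay just above both NTC arrays. RPL22L1 fell by 0.26 on the log2 scale with PRMT5 shRNA 1 (SE 0.06, adjusted p = 0.00563 in limma), to 0.83 times the NTC signal. With PRMT5 shRNA 2 the difference was 0.03 ± 0.06, and the difference between the hairpins, PRMT5 shRNA 2 minus PRMT5 shRNA 1, was 0.29 ± 0.06 (adjusted p = 0.0065). Of the 17 alternatives, the one without PRMT5 shRNA 1 replicate 2 ended both calls, at adjusted p of 0.0539 and 0.0609. The parent RPL22 read 3402 and 3568 in the PRMT5 shRNA 1 arrays and 3497 and 3257 in the PRMT5 shRNA 2 arrays, against 3288 and 3277 in the NTC arrays at its brightest probe set, with differences of 0.09 and 0.04 that did not pass the test. Of its other probe sets, 221726_at was the one called. It read 2858 and 3031 in the PRMT5 shRNA 1 arrays and 2827 and 2742 in the PRMT5 shRNA 2 arrays, against 2669 and 2481 in the NTC arrays and rose by 0.19 ± 0.06 with PRMT5 shRNA 1 (adjusted p = 0.0217 in limma) and by 0.15 ± 0.05 averaged (adjusted p = 0.039), calls that were lost in 6 and 9 of the 15 alternatives run on probe sets.

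RPS27L, a paralog of RPS27 and a known p53 target, read 2494 and 2671 in the PRMT5 shRNA 1 arrays and 2516 and 2296 in the PRMT5 shRNA 2 arrays, against 2135 and 2197 in the NTC arrays. All 4 PRMT5 shRNA arrays lay above both NTC arrays. It rose by 0.25 ± 0.06 with PRMT5 shRNA 1 (adjusted p = 0.00726 in limma) and by 0.20 ± 0.05 for both hairpins averaged (adjusted p = 0.0136), 1.15-fold. Its other probe sets gave 0.26 and 0.26 with PRMT5 shRNA 1, and both passed the test, so all 3 probe sets rose in that contrast. RPS27L lost the averaged call without either NTC array, without the intensity trend and without _x_at and _s_at probe sets. Its PRMT5 shRNA 1 call ended without NTC replicate 1 or PRMT5 shRNA 1 replicate 2. The parent RPS27 read 3819 and 3688 in the PRMT5 shRNA 1 arrays and 3600.1 and 3352 in the PRMT5 shRNA 2 arrays, against 3441 and 3423 in the NTC arrays, and its differences of 0.13 and 0.02 did not pass the test.

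The other paralogs did not pass the test in any contrast. RPL7L1, a paralog of RPL7 with a part in ribosome assembly, read 2423 and 2424 with PRMT5 shRNA 1, 2406 and 2329 with PRMT5 shRNA 2, and 2406 and 2560.1 with NTC shRNA, with differences of -0.03 and -0.07 and overlapping groups. RPL7 read 4479 and 4746 with PRMT5 shRNA 1, 4489.6 and 4256 with PRMT5 shRNA 2, and 4296 and 4396 with NTC shRNA. RPL26L1, a near copy of RPL26, read 722 and 677 with PRMT5 shRNA 1, 673 and 609 with PRMT5 shRNA 2, and 699 and 697 with NTC shRNA. Both PRMT5 shRNA 2 arrays lay below all other arrays there, with a difference from NTC of -0.12 ± 0.07. RPL10L, a copy of RPL10 known from the testis, gave a dim and uneven signal of 67.1 and 60.0 with PRMT5 shRNA 1, 46.3 and 57.1 with PRMT5 shRNA 2, and 93.9 and 57.5 with NTC shRNA, in which the NTC arrays spanned the PRMT5 shRNA 1 arrays. RPL3L, the striated muscle paralog of RPL3, and RPL39L, the testis paralog of RPL39, read at most 2.7 and 1.6 in any array, far under the array medians of 14.8 to 16.4. Their parents were bright, and RPL3 differed by 0.16 and 0.07 and RPL39 by 0.18 ± 0.06 (adjusted p = 0.0298) and 0.02 for the 2 hairpins. The expression of RPL10 and RPL26 as single-symbol probe sets was not analysed here. RPL10 had 4 kept probe sets that carry several symbols. Of these, 200725_x_at rose by 0.24 ± 0.08 with PRMT5 shRNA 1 (adjusted p = 0.031 in limma). The dimmer 200724_at was higher with PRMT5 shRNA 2 than with PRMT5 shRNA 1 (0.27 ± 0.08, adjusted p = 0.0278). The other kept ones were not called in any contrast.

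**Figure D4:**
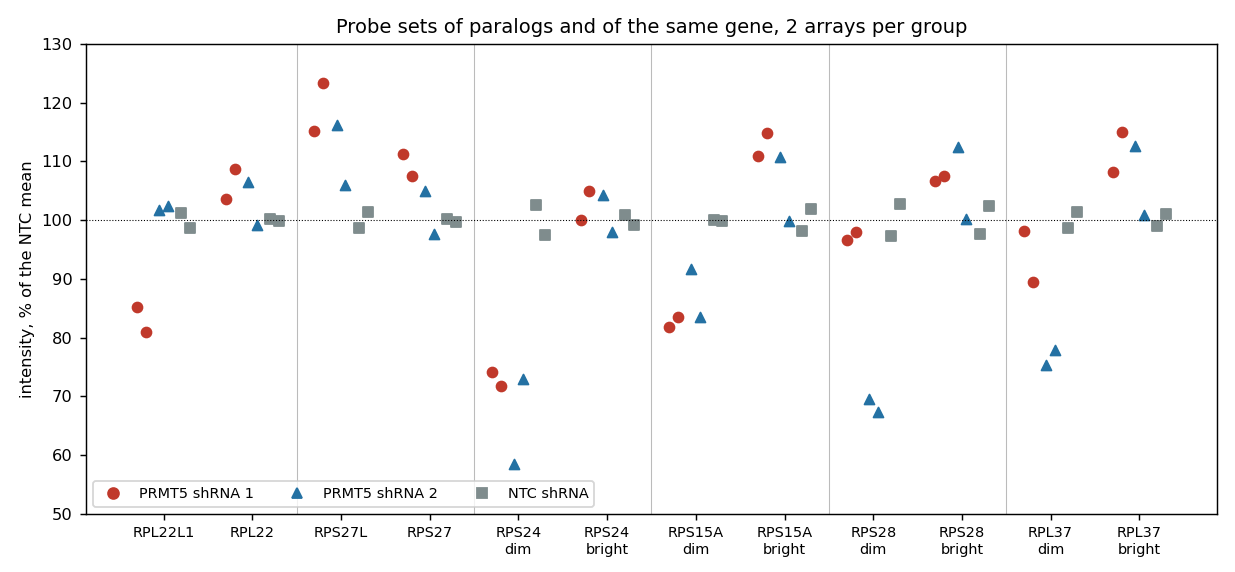
Intensity in each array as a percentage of the NTC mean for the paralog pairs RPL22L1 and RPL22 and RPS27L and RPS27, and for a dim and the brightest probe set of RPS24, RPS15A, RPS28 and RPL37. The dim RPS24 probe set lies below the NTC arrays in all 4 PRMT5 shRNA arrays while the bright one stays near 100%.

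Probe sets of the same gene did not always move together. Of the 120 member probe sets, 36 end in _x_at (probes shared with other transcripts), 38 in _s_at (probes shared within a gene family or between variants) and 46 in neither. Of these 110 were kept, 34, 38 and 38 of each kind. With PRMT5 shRNA 1, 21 probe sets rose and 6 fell (19.1% and 5.45%), where 17.5% and 19% of all 28644 kept probe sets did. With PRMT5 shRNA 2, 0 rose and 5 fell, where 9.38% and 8.63% of all did. The median difference with PRMT5 shRNA 1 was 0.13 for _x_at, 0.14 for _s_at and 0.05 for the other probe sets, of which the 13 at a mean intensity of 2000 or more had 0.16 and the 25 dimmer ones -0.09. Among the 21 that rose, those of RPL12, RPL22, RPS10 and RPS19 belong to genes whose brightest probe set passed neither over genes nor over probe sets. The brightest RPL10A probe set passed over genes and not over probe sets (adjusted p = 0.0454 and 0.0507 in limma).

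Higher and lower calls lay at different brightness. Of the 76 probe sets with a mean intensity of 2000 or more, 18 rose and 0 fell with PRMT5 shRNA 1, and 0 rose and 0 fell with PRMT5 shRNA 2. Of the 34 dimmer ones, 3 rose and 6 fell with PRMT5 shRNA 1, and 0 rose and 5 fell with PRMT5 shRNA 2. Among all kept probe sets, bright and dim together, 17.5% rose and 19% fell with PRMT5 shRNA 1, and 9.38% and 8.63% with PRMT5 shRNA 2. Genes outside the members also varied with brightness with PRMT5 shRNA 1. Their median difference was 0.06 at 2000 to 3000, 0.07 at 3000 or more and -0.10 at 100 to 250. With PRMT5 shRNA 2 these medians were 0.01, -0.01 and 0.03. The accession listed for the probe set was a RefSeq mRNA for 35 of the 76 bright ones and 3 of the 34 dim ones. In the 20 genes with both kinds there were 28 dim probe sets, of which 21 had a lower difference than the gene's brightest probe set with PRMT5 shRNA 1 and 22 with PRMT5 shRNA 2. What the dim probe sets detect (a variant, an unspliced or extended transcript, or cross-hybridisation) was not tested.

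**Figure D5:**
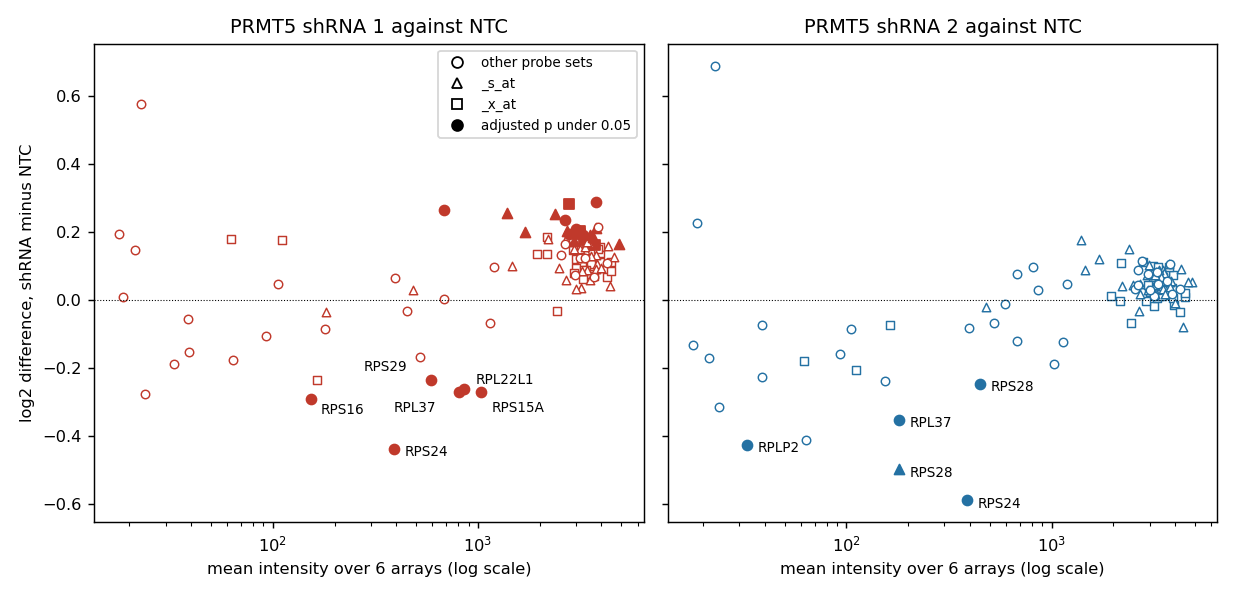
Log2 difference from NTC of the 110 kept member probe sets against their mean intensity (log axis), for PRMT5 shRNA 1 and PRMT5 shRNA 2, with symbols by probe set kind and filled symbols at an adjusted p under 0.05. The probe sets at 2000 or more form 1 tight cloud above 0 with PRMT5 shRNA 1, with a median of 0.13. With PRMT5 shRNA 2 their median is 0.04, and 67 of 76 are above 0. All called decreases, gene names beside them, are at dimmer probe sets.

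RPS24, a small subunit protein mutated in Diamond-Blackfan anaemia whose transcripts differ by alternative 3′ exons, had a dim probe set that fell with both hairpins. RPS24 was singled out after its values were seen. Its dim probe set 1555878_at read 362 and 349.5 in the PRMT5 shRNA 1 arrays and 285 and 356 in the PRMT5 shRNA 2 arrays, against 500 and 475 in the NTC arrays. All 4 PRMT5 shRNA arrays lay below both NTC arrays. The log2 difference was -0.44 ± 0.10 with PRMT5 shRNA 1, -0.59 ± 0.10 with PRMT5 shRNA 2 and -0.51 ± 0.08 averaged (adjusted p = 0.00472, 0.00145 and 9.32e-04 in limma), and all of these calls held under the 15 alternatives run on probe sets. The bright probe set read 3155 and 3312 in the PRMT5 shRNA 1 arrays and 3293 and 3093 in the PRMT5 shRNA 2 arrays, against 3182 and 3129.8 in the NTC arrays, with overlapping groups.

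RPS15A, a small subunit protein, had probe sets called in opposite directions with PRMT5 shRNA 1. The bright probe set read 3061 and 3169 in the PRMT5 shRNA 1 arrays and 3055 and 2754 in the PRMT5 shRNA 2 arrays, against 2708 and 2813 in the NTC arrays. It rose by 0.17 ± 0.06 with PRMT5 shRNA 1 (adjusted p = 0.0362 over genes in limma), a call lost in 10 of the 15 alternatives run on probe sets. The dimmer probe set 235309_at read 936 and 956 in the PRMT5 shRNA 1 arrays and 1051 and 957 in the PRMT5 shRNA 2 arrays, against 1147 and 1144 in the NTC arrays. All 4 PRMT5 shRNA arrays were below NTC there, with differences of -0.27 ± 0.06 for PRMT5 shRNA 1 (adjusted p = 0.00686 over probe sets) and -0.19 ± 0.06 for PRMT5 shRNA 2 (adjusted p = 0.062). The fall with PRMT5 shRNA 1 was lost in 0 of the 15 alternatives.

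RPS28, RPL37 and RPS29 had dim probe sets that separated the hairpins, and RPS28 and RPS29 probe sets were singled out after their values were seen. For RPS28, a small subunit protein, 208902_s_at read 197 and 200 in the PRMT5 shRNA 1 arrays and 142 and 137 in the PRMT5 shRNA 2 arrays, against 199 and 209.6 in the NTC arrays. It was low in both PRMT5 shRNA 2 arrays alone, with a difference of -0.50 ± 0.08 (adjusted p = 0.00162 in limma), beside -0.04 ± 0.08 for PRMT5 shRNA 1. The second RPS28 probe set, 208903_at, read 449 and 485 with PRMT5 shRNA 1, 399.7 and 401 with PRMT5 shRNA 2, and 474 and 482 with NTC shRNA, and the gene's brightest read 1490.3 and 1503 with PRMT5 shRNA 1, 1572 and 1399.5 with PRMT5 shRNA 2, and 1363 and 1431 with NTC shRNA. The second fell with PRMT5 shRNA 2 as well (-0.25 ± 0.07, adjusted p = 0.0307), and the brightest did not pass the test.

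For RPL37, a zinc-binding large subunit protein, 224763_at read 676 and 704 in the PRMT5 shRNA 1 arrays and 942 and 847 in the PRMT5 shRNA 2 arrays, against 795 and 878 in the NTC arrays, low with PRMT5 shRNA 1 (-0.27 ± 0.07, adjusted p = 0.0156 in limma). The RPL37 probe set 224766_at went the other way between the hairpins, at 196 and 179 in the PRMT5 shRNA 1 arrays and 151 and 156 in the PRMT5 shRNA 2 arrays, against 197 and 203 in the NTC arrays, low with PRMT5 shRNA 2 (-0.35 ± 0.08, adjusted p = 0.0145). In the contrast of PRMT5 shRNA 2 with PRMT5 shRNA 1 the first was called higher and the second lower, and the second call was lost in 10 of the 15 alternatives run on probe sets. The bright RPL37 probe set read 4379.8 and 4657 with PRMT5 shRNA 1, 4558 and 4079 with PRMT5 shRNA 2, and 4005 and 4088 with NTC shRNA and did not pass the test. RPS29, another zinc-binding protein, read 533 and 521 with PRMT5 shRNA 1, 628 and 609 with PRMT5 shRNA 2, and 636 and 612 with NTC shRNA at 238824_at, low with PRMT5 shRNA 1 (-0.24 ± 0.06, adjusted p = 0.0148). Dim probe sets of RPS16 (226130_at, -0.29 with PRMT5 shRNA 1) and RPLP2 (217670_at, -0.43 with PRMT5 shRNA 2) also fell. The dim RPS6 probe set 211690_at read 3.2 and 60.0 with PRMT5 shRNA 1, 27.7 and 23.0 with PRMT5 shRNA 2, and 20.5 and 2.0 with NTC shRNA, without any grouping.

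The rule leaves out probe sets that carry several symbols. Of 65 such probe sets of ribosomal protein genes, 56 include the symbol of a snoRNA, a small RNA encoded in an intron of the host gene that guides modification of ribosomal RNA. With PRMT5 shRNA 1, 8 of the 64 kept rose and 2 fell, where 17.5% and 19% of all kept probe sets did. With PRMT5 shRNA 2, 1 rose and 4 fell, where 9.38% and 8.63% of all did. RPS2, the PRMT3 substrate, has 3 probe sets shared with SNORA64. The brightest, 212433_x_at, read 3255 and 3724 in the PRMT5 shRNA 1 arrays and 3403 and 2776 in the PRMT5 shRNA 2 arrays, against 2946 and 3097 in the NTC arrays and did not pass the test (0.20 ± 0.09 with PRMT5 shRNA 1, adjusted p = 0.0971 in limma). The next, 203107_x_at, read 3079 and 3305 in the PRMT5 shRNA 1 arrays and 3058 and 2638 in the PRMT5 shRNA 2 arrays, against 2516 and 2729.6 in the NTC arrays and rose by 0.28 ± 0.07 with PRMT5 shRNA 1 (adjusted p = 0.0121). The dim 217466_x_at gave 0.15 ± 0.11 (adjusted p = 0.305), so 1 of the 3 was called. The widest change was at 223707_at, shared by RPL27A and SNORA3A, which read 22.3 and 24.7 in the PRMT5 shRNA 1 arrays and 32.9 and 37.6 in the PRMT5 shRNA 2 arrays, against 78.2 and 69.3 in the NTC arrays. Every PRMT5 shRNA array lay far below both NTC arrays, with a difference of -1.18 ± 0.11 with PRMT5 shRNA 1 and -0.81 ± 0.11 with PRMT5 shRNA 2 (adjusted p = 1.87e-05 and 5.03e-04). RPL27A at its own bright probe set read 3677 and 4037 with PRMT5 shRNA 1, 3780 and 3209.7 with PRMT5 shRNA 2, and 3455 and 3356 with NTC shRNA and did not pass the test. Which transcript such a probe set reports cannot be told apart from the signal.

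Larger differences were measured among genes that act around the ribosome, of which NOP2 and TSR2, for example, read at lower signal than most members. The part of signal level in the size of these differences was not tested. Of 22 tested ribosome biogenesis factors, 0 rose and 11 fell for both hairpins averaged, with a median of -0.19, where 15.4% of all genes rose and 17% fell, with a median of -0.01. NOP2, a methyltransferase of the large ribosomal RNA, read 255 and 217 in the PRMT5 shRNA 1 arrays and 295 and 318 in the PRMT5 shRNA 2 arrays, against 442 and 382 in the NTC arrays, lower in all 4 PRMT5 shRNA arrays, by -0.59 ± 0.09 averaged (adjusted p = 4.22e-04 in limma). Of 14 chaperones and modifying enzymes of ribosomal proteins, 2 rose and 5 fell, against the same 15.4% and 17% of all genes. TSR2, the chaperone that carries RPS26, read 562 and 585 in the PRMT5 shRNA 1 arrays and 388 and 365 in the PRMT5 shRNA 2 arrays, against 295 and 346 in the NTC arrays and rose by 0.52 ± 0.07 averaged (adjusted p = 3.28e-04), together with RIOX1, a histidine hydroxylase of RPL8 (0.46). LTV1, which loads RPS3 and RPS10 onto the small subunit, fell by 0.37 on the log2 scale, PRMT3, the RPS2 methyltransferase, had -0.29, and RIOX2, GRWD1 and RPF2 fell too (-0.27, -0.25 and -0.17).

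Of 14 genes that control translation of ribosomal protein mRNAs, 2 rose and 2 fell for both hairpins averaged, shares close to the 15.4% and 17% of all genes. DDIT4, an mTORC1 inhibitor induced by stress, read 1885 and 2129 in the PRMT5 shRNA 1 arrays and 2004 and 1866 in the PRMT5 shRNA 2 arrays, against 940.1 and 999.6 in the NTC arrays, high in all 4 PRMT5 shRNA arrays (difference 1.01 ± 0.06 averaged, adjusted p = 4.32e-07 in limma). SESN2, another mTORC1 inhibitor, rose (0.41), whereas TSC2, part of the complex that restrains mTORC1, and RPTOR, an mTORC1 subunit, fell (-0.37 and -0.32). No measure of mTORC1 activity is among these data. Of 28 initiation factors 0 rose and 3 fell, EIF4EBP2 by the most (-0.31 ± 0.05, adjusted p = 0.00125). EIF4EBP2, a repressor of cap-dependent translation, fell with PRMT5 shRNA 1 (-0.69) and gave 0.07 with PRMT5 shRNA 2. Of 14 elongation factors and other TOP mRNAs 0 were called, with a median of 0.05, and of 2 ribosomal proteins with symbols of another form 0 were called, with a median of 0.10.

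The mitochondrial ribosomal proteins, which serve the separate ribosome of that organelle, were called in both directions. Of 75 tested, 7 rose and 10 fell for both hairpins averaged, with a median of 0.02, and both shares lie under the 15.4% and 17% of all genes. MRPS9, of the small mitochondrial subunit, fell most, reading 389 and 403 in the PRMT5 shRNA 1 arrays and 436 and 461 in the PRMT5 shRNA 2 arrays, against 549.7 and 595 in the NTC arrays (-0.43 ± 0.06, adjusted p = 4.22e-04 in limma). MRPL41, of the large subunit, rose most (0.38 ± 0.08, adjusted p = 0.00345), and MRPL54, MRPS21, MRPS18A, MRPL33, MRPS33 and MRPL13 also rose, by 0.16 to 0.28. Over the cytosolic members the called changes in the same contrast spanned 0.16 to 0.20.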

How the data were processed

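Total RNA was amplified, labelled with biotin and hybridised, 1 array per sample, per the labels' protocols. The deposited values are probe set intensities made by the authors with MAS5 (per the submitters' processing notes). Version, detection calls and genome build: not given in the sources used here. The mean after trimming 2% at each end was about 150 in every column, and no further scaling was applied. Of 54675 probe sets, 41091 had 1 symbol, 1801 several and 11721 none in the platform annotation, and 62 controls were left out of the tests. The arrays give no counts, so their number limits the precision.

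From the deposited intensity, log2(intensity + 16) was computed, and differences are on that log2 scale. Each gene was read from its kept probe set with 1 symbol and the highest mean. All 6 arrays were fitted in limma 3.58.1 (R 4.3.3) with 1 coefficient per group and an intensity trend (3 residual degrees of freedom, prior 7.89), over 12413 genes, and over 28644 kept probe sets in a second fit. Tests were two-sided, with Benjamini-Hochberg adjustment over the whole table and a call at an adjusted p under 0.05. The self-test on simulated data was run before the fits. Alternatives were pseudocounts of 1 and 64, no filter, other scalings, the replicate block, no trend, other rules for a gene's probe set, and leaving out each array. Same-numbered replicates deviated together with correlations of -0.09, -0.18 and -0.00448, so the numbers were not taken as pairs.

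The members, gene lists and alternatives were chosen with earlier results of these data known. Named were, among called members, the 10 highest and lowest in the averaged contrast and 5 in the others, the P stalk, 5S, methylated and paralog groups, the 5 brightest and 5 dimmest genes, genes with opposite probe sets, PRMT5, and from each list the called gene with the largest change and those opposite to it. RPLP0, RPS27A, RPL26, RPL15 and RPSA were not analysed here, and some other genes are not reported here. Start sites come from RefSeq (GRCh38.p14).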

Additional observations from a re-analysis of the deposited data

Results flagged for a closer look

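The hairpins differed from each other, by limma's test of the difference itself, for 7 of 110 member probe sets (PRMT5 shRNA 2 minus PRMT5 shRNA 1, log2 scale), 3 higher and 4 lower (2.73% and 3.64%), where 13.1% and 12.7% of all kept probe sets were. RPL22L1 differed by 0.29 (adjusted p = 0.0065 over genes), with both PRMT5 shRNA 2 arrays above both PRMT5 shRNA 1 arrays. The 2 dim RPS28 probe sets differed by -0.46 (208902_s_at, adjusted p = 0.00307 over probe sets) and -0.21 (208903_at, adjusted p = 0.0437). RPL37 gave 0.37 at 224763_at (adjusted p = 0.00579) and -0.27 at 224766_at (adjusted p = 0.04). RPS29 gave 0.22 at 238824_at (adjusted p = 0.0271), and RPS19 gave -0.38 at 242451_x_at (adjusted p = 0.0289). In each of these pairs the 2 arrays of one hairpin lay on the same side of the 2 arrays of the other. The call was lost in 10 of the 15 alternatives run on probe sets for RPL37 at 224766_at, in 11 for RPS28 at 208903_at, in 6 for RPS19, in 5 for RPS29 and in 1 for RPL22L1, and in 0 for RPS28 at 208902_s_at and RPL37 at 224763_at. The RPL37 probe sets thus point in opposite directions within 1 gene. No cause was tested.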

How the results depend on the processing

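As reported, 17 member genes were called higher and 1 lower with PRMT5 shRNA 1, 0 and 0 with PRMT5 shRNA 2, 3 and 0 for both hairpins averaged, and 1 and 0 for PRMT5 shRNA 2 against PRMT5 shRNA 1. The counts of member probe sets in these contrasts were 21 and 6, 0 and 5, 6 and 6, and 3 and 4. Quantile normalization gave 3 genes and 6 probe sets higher with PRMT5 shRNA 1. Cyclic loess gave 9 genes and 13 probe sets higher with PRMT5 shRNA 1, and 1 gene and 1 probe set higher with PRMT5 shRNA 2. With the brightest 10% set to 1 median, 1 gene and 1 probe set were higher with PRMT5 shRNA 2, 11 genes and 14 probe sets were higher averaged, and 3 genes and 2 probe sets were lower between the hairpins. Scaling to the hybridisation controls gave 2 genes higher and 2 lower (RPL22L1 and RPL7L1) and 3 probe sets higher with PRMT5 shRNA 1, 1 gene lower, 2 probe sets higher and 10 lower averaged, and 1 probe set lower between the hairpins. No filter gave 3 genes and 5 probe sets higher with PRMT5 shRNA 1, 3 probe sets lower with PRMT5 shRNA 2, 1 gene higher, 2 probe sets higher and 3 lower averaged, and 1 probe set lower between the hairpins. No intensity trend gave 2 genes and 1 probe set higher with PRMT5 shRNA 1, and 0 genes and 0 probe sets higher averaged. The replicate block, whose numbers do not pair the arrays, gave 7 genes and 10 probe sets higher with PRMT5 shRNA 1 and 3 probe sets higher averaged. The mean over probe sets gave 10 genes higher and 2 lower with PRMT5 shRNA 1, 3 lower with PRMT5 shRNA 2, 1 higher and 1 lower averaged, and 4 lower between the hairpins. Without _x_at and _s_at probe sets, 30 members were tested. Of these, 6 were higher and 4 lower with PRMT5 shRNA 1, and 3 were lower with PRMT5 shRNA 2. Averaged, 3 were lower, and between the hairpins 2 were higher and 1 lower. Both alternatives turned the sign of genes with a dim probe set, by construction, since the first averages it with the bright one and the second reads it in place of the bright one. With the mean over probe sets, RPS24 gave -0.20, -0.29 and -0.24 (PRMT5 shRNA 1, PRMT5 shRNA 2, averaged), RPS15A -0.084 (PRMT5 shRNA 1), and RPLP2 -0.19 and RPS28 -0.22 (PRMT5 shRNA 2). Without _x_at and _s_at probe sets, RPS24 gave -0.44, -0.59 and -0.51, RPS15A -0.27 (PRMT5 shRNA 1) and -0.23 (averaged), RPLP2 -0.43 (PRMT5 shRNA 2) and -0.31 (averaged), RPS14 -0.013 (averaged), RPS28 -0.25 (PRMT5 shRNA 2), and RPL37 -0.27 (PRMT5 shRNA 1) and 0.37 between the hairpins. Leaving out each array in turn, with a lone array assumed to vary like the other groups, gave 0 to 32 genes higher and 0 to 2 lower with PRMT5 shRNA 1, 0 to 3 higher and 0 to 1 lower with PRMT5 shRNA 2, 0 to 29 higher and 0 to 1 lower averaged, and 0 to 1 higher and 0 to 23 lower between the hairpins. For probe sets the ranges in the same contrasts were 0 to 42 higher and 3 to 7 lower, 0 to 7 higher and 2 to 5 lower, 0 to 37 higher and 2 to 7 lower, and 2 to 3 higher and 1 to 34 lower. All other counts stayed within 1.5 times those reported, both pseudocounts included. The cause of the other differences was not tested. The 2 arrays of a group, and signals near the array median for the dimmest probe sets, limit what differences could be detected.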
